A study of Mus musculus with 12 samples.

Results

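The genes described here encode glucose and lactate transporters, glycolytic enzymes, the kinases that steer glycolytic flux, the oxygen-sensing machinery and other genes known to be induced by low oxygen. The genes were selected on their array levels in adipocytes made from embryonic stem cells, where many of them were high, so the values of those cells are given below as a description with no test. Of 41 listed genes 40 were measured, among 19938 genes analysed. Gpi1, which encodes the enzyme that turns glucose 6-phosphate into fructose 6-phosphate, had no probe set with a single gene symbol and was not analysed here. The glycolysis side holds 22 measured genes (4 transporters, 14 enzymes and 4 kinases), and the hypoxia side holds 18 (4 genes of oxygen sensing and 14 other targets).

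Transcripts were measured on 12 arrays of mouse total RNA, 3 biological replicates for each of 4 groups. Of the groups, 3 were adipocytes differentiated in culture, starting from 3T3-L1 (an immortalized fibroblast line of the mouse), from PMEF (primary fibroblasts of mouse embryos) or from ES (mouse embryonic stem) cells, and the fourth group was tissue of healthy wild-type mice labelled eWAT, a usual short form for epididymal white adipose tissue. The labels name no gene edit and refer to a paper, not used here, for culture and treatment. The medium, oxygen and length of differentiation, the strain and age of the mice and any pooling are therefore unknown here. Sex is not labelled either, though an epididymal depot belongs to males. Each culture is a single kind of cell source, so cell origin cannot be told apart from line or culture conditions, and a whole tissue was set against cultures.

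Glycolysis breaks glucose down to pyruvate in the cytosol, and lactate dehydrogenase turns pyruvate into lactate when it is not oxidized in mitochondria. When oxygen is ample, prolyl hydroxylases (the Egln enzymes) mark the alpha subunits of hypoxia-inducible factor (HIF) for destruction. When oxygen is scarce the alpha subunits, encoded by Hif1a and Epas1, persist, pair with a beta subunit and bind the core sequence ACGTG or GCGTG in genes for glycolysis, vessel growth, mitochondrial turnover and collagen modification. Adipose tissue is a place where HIF is much studied, because growing fat can outrun its blood supply.

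The HIF core sequence was looked for in the 250 bases before each annotated RefSeq start, in order to show the promoters of the genes at the centre of the results. The promoters of 6 genes are printed, from those members whose window lies at the outer end of the annotated gene (23 members), taking the 6 with the largest difference between ES adipocytes and eWAT. The sequences are from RefSeq on build GRCm38.p6, written 5′ to 3′ on the strand of the gene and ending at the base before the start, and capitals mark ACGTG or GCGTG on either strand (CACGT and CACGC when read on the printed strand). Aldoc, a brain-type aldolase, is at chr11:78322823-78323072 on the + strand, and Slc2a1, the basal glucose transporter GLUT1, is at chr4:119108495-119108744 on the + strand. Egln3, an oxygen-sensing hydroxylase that HIF itself induces, is at chr12:54203875-54204124 on the - strand, and Ero1a, an oxidase that helps disulfide bonds form in the endoplasmic reticulum, is at chr14:45318573-45318822 on the - strand. Fam162a, a mitochondrial protein induced by hypoxia, is at chr16:36071562-36071811 on the - strand, and Adm, the vasodilator peptide adrenomedullin, is at chr7:110627407-110627656 on the + strand.
Aldoc: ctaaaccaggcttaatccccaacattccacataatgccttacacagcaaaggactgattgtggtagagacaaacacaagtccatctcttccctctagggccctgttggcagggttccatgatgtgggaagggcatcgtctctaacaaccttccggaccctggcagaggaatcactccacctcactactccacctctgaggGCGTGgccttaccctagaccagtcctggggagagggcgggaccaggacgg
Egln3: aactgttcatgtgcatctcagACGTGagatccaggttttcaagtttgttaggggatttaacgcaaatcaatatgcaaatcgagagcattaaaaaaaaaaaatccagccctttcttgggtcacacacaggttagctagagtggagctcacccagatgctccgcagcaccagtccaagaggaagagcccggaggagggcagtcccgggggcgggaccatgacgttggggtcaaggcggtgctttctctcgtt
Ero1a: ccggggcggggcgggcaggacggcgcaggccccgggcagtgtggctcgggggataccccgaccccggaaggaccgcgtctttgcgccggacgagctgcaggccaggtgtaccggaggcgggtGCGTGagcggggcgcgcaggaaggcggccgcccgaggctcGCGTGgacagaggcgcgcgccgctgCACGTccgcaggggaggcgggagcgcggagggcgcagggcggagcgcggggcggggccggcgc
Slc2a1: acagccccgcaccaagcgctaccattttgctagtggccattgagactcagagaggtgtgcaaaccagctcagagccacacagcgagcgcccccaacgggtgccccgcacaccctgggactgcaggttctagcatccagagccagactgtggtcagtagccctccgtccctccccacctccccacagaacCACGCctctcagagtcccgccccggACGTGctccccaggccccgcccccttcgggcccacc
Fam162a: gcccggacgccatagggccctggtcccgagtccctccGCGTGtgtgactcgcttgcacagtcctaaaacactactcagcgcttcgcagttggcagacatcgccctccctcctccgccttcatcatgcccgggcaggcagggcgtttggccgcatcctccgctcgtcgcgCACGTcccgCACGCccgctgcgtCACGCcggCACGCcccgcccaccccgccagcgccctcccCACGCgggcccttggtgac
Adm: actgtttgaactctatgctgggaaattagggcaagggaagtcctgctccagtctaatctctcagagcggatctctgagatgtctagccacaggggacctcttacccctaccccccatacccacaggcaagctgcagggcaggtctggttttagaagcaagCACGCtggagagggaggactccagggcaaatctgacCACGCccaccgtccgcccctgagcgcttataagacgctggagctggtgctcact

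Counting the last base before the start as -1, the matches began at -50 in Aldoc, at -229 in Egln3, at -128, -88 and -63 in Ero1a, and at -61 and -36 in Slc2a1. Fam162a held 6 matches, between -213 and -19, and Adm held matches at -90 and -54. Of the 40 measured members 36 were in the promoter table, and 34 of these held a match in at least 1 window. A gene with several windows has more chances of a match, and the like share over all genes was not counted. No match was in the windows of Eno2 and Tpi1. Slc2a3, Epas1, Bnip3l and Ndrg1 were not matched to a window. Over windows, of which a gene can have several that overlap, 83.0% of the 53 member windows held a match, against 46.2% of the 19177 windows of the genes analysed and 38.6% of all 32851 windows. At least 2 matches were found in 54.7%, 21.4% and 16.7% of these windows, with each position counted, so that a palindromic CACGTG counts on both strands. Every form of the motif holds a CpG, and the median number of CpG per window was 17 in the members, 11 in the genes analysed and 6 in all windows. The part of base composition in these shares was not tested. A match describes these letters only and is not evidence that HIF binds there.

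All values below are log2 intensities as deposited, and differences are on the log2 scale with the standard error (SE) of a linear model fitted to all 12 arrays with limma. A gene is said to have risen or fallen where the Benjamini-Hochberg adjusted p over 19938 genes was under 0.05. Intensities of different genes depend on their probes and are not set against each other. Every group expressed fat cell genes: the mean of 10 adipocyte markers was 11.05 to 11.17 in 3T3-L1, 11.21 to 11.25 in PMEF, 11.74 to 11.78 in ES adipocytes and 11.81 to 11.91 in eWAT. Fabp4, the fatty acid carrier of fat cells, had group means of 12.40 to 12.60, whereas the regulator Cebpa was at 7.57 in 3T3-L1 adipocytes against 9.67 in PMEF, 10.61 in ES adipocytes and 10.43 in eWAT. In eWAT the 10 endothelial markers had a mean of 8.85 to 9.18 and the 10 macrophage markers 8.60 to 9.66, against 5.25 to 5.59 and 5.15 to 5.95 in the cultures. In 3T3-L1 adipocytes 9 of the macrophage markers fell against eWAT (22.5% of all genes) and 1 rose (30.8%). That 1 was Cd68, at 10.42 in 3T3-L1 adipocytes and 9.49 in eWAT (0.93 ± 0.19, adjusted p = 0.000909). Fewer cells of a type and less RNA per cell cannot be told apart in such bulk samples.

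Across the members, ES adipocytes stood apart in most genes, as the choice of members would bring about. The 3 ES arrays lay above all 9 other arrays in 26 of 40 members, a pattern seen in 8.31% of all genes, and below all of them in 2 members, Epas1 and the phosphofructokinase regulator Pfkfb4 (4.94% of all genes). The mean over the 40 members was 9.95 to 10.01 in ES adipocytes, 8.86 to 8.94 in 3T3-L1, 8.61 to 8.68 in PMEF adipocytes and 8.71 to 8.75 in eWAT. Of the 40 group profiles, 30 spanned at least 1 on the log2 scale, as did 4920 of all 19938 genes. ES adipocytes had the highest mean in 27 members, 3T3-L1 adipocytes in 9, PMEF adipocytes in 3 and eWAT in only 1, which was Epas1. Over all 19938 genes the highest mean was in ES adipocytes for 3794, in 3T3-L1 for 6071, in PMEF adipocytes for 5388 and in eWAT for 4685.

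**Figure D1:**
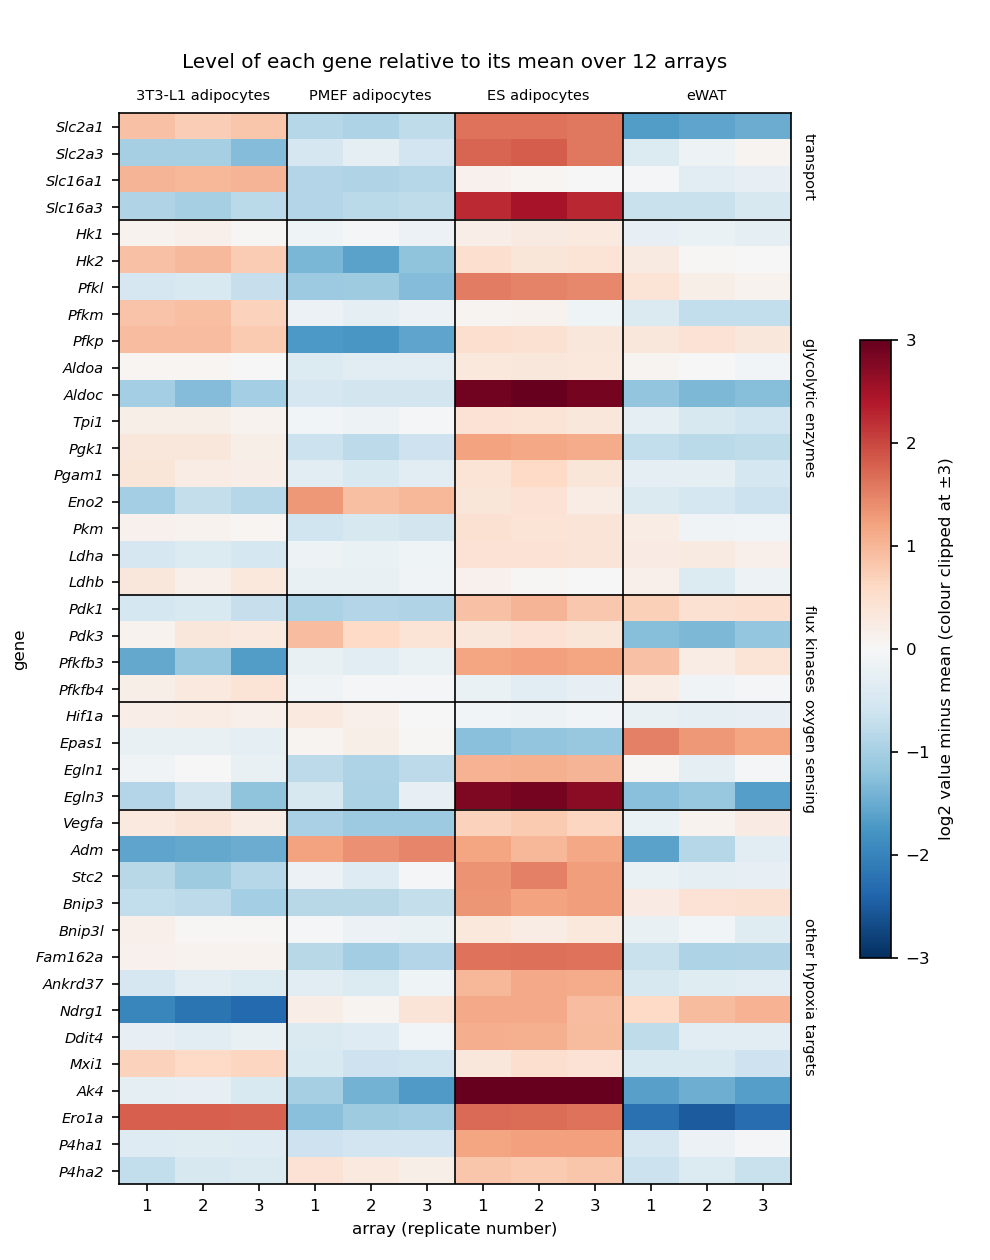
Log2 value minus the mean of each gene over 12 arrays (colour, clipped at 3 on either side) for the 40 measured members in rows and the arrays of the 4 groups in columns, with the genes ordered by role. The mean of the ES columns is the highest in 27 rows, Epas1 is highest in eWAT, and 3T3-L1 and PMEF columns differ from each other in many rows.

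Against eWAT, the ES arrays were higher without overlap in 35 members (33.6% of all genes) and lower in 2 (24.3%). The median member difference was 0.88, against 0.04 over all genes, and 18 members were higher by at least 1 (4.39% of all genes) and 1 lower (5.86%). Against PMEF adipocytes 34 members were higher without overlap (28.3%) and 5 lower (24.1%), with a median of 1.36, 21 members higher by at least 1 (2.54%) and 1 lower (4.17%). Against 3T3-L1 adipocytes 29 were higher (25.9%) and 10 lower (29.5%), with a median of 0.89, 19 members higher by at least 1 (5.34%) and 0 lower (2.81%). The median difference from eWAT was 0.68 on the glycolysis side and 1.43 on the hypoxia side. Against 3T3-L1 adipocytes these medians were 0.31 and 1.43. These counts used the levels that chose the members and carry no test.

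The tested comparisons, which leave the ES arrays out of the contrast, did not show one direction. Against eWAT, 19 of 40 members rose in 3T3-L1 adipocytes (30.8% of all genes rose), 12 fell (22.5% fell) and 9 did not pass, with a median of 0.23 against 0.05 over all genes. In PMEF adipocytes 11 members rose (24.7%), 15 fell (21.6%) and 14 did not pass, with a median of -0.04 against 0.05. Between the fibroblast cultures, 11 members were higher in PMEF than in 3T3-L1 adipocytes (22.3%) and 22 were lower (27.8%), with a median of -0.23 against 0.01. Both comparisons with tissue share the eWAT arrays. The 3T3-L1 counts moved with the scaling of the arrays, to 25 higher and 9 lower with arrays centred on their medians and to 14 higher and 16 lower with arrays centred on reference genes.

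**Figure D2:**
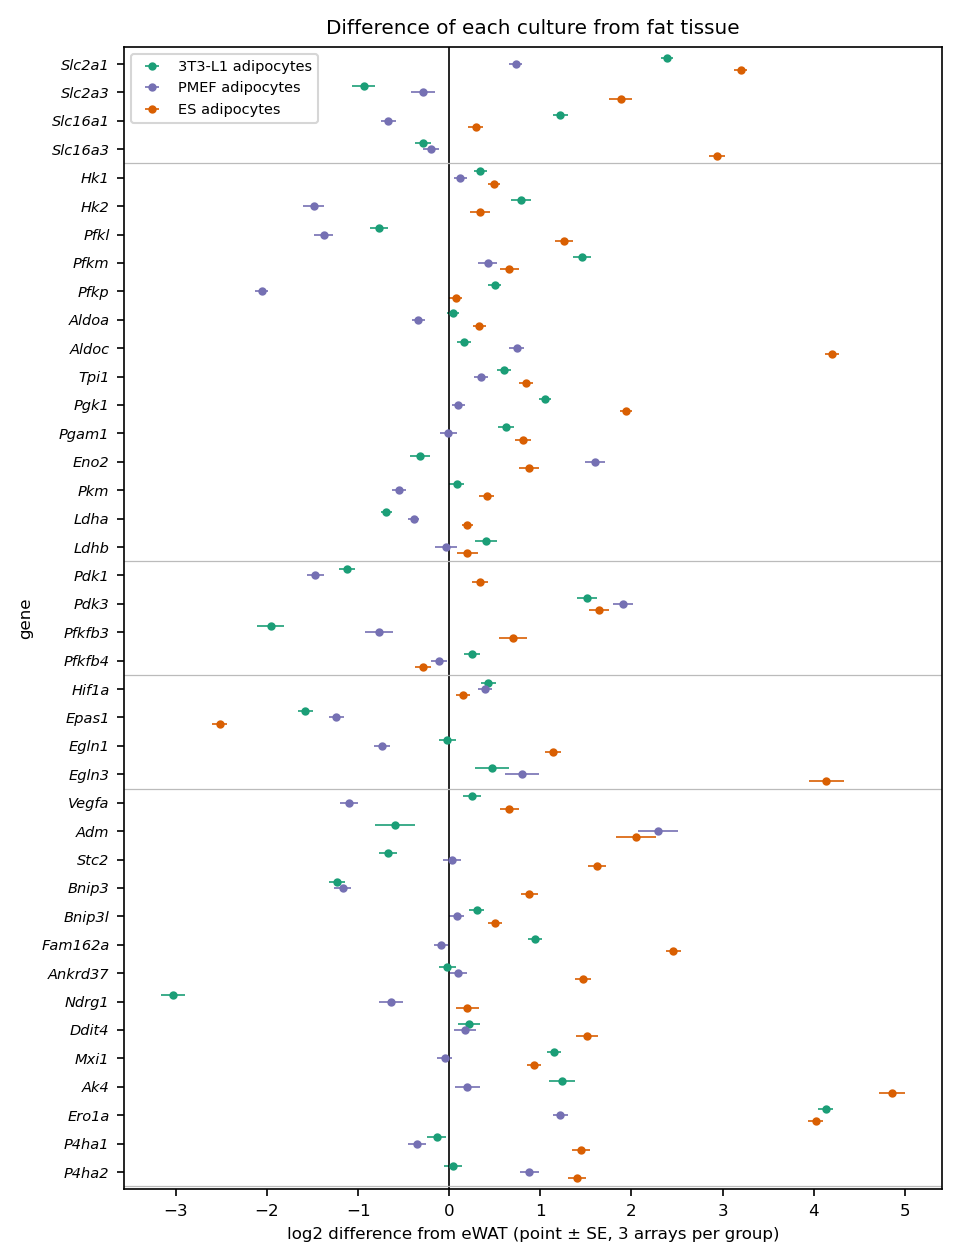
Log2 difference from eWAT (points, with SE as bars, 3 arrays per group) of the 40 members, with each culture in its own colour and the genes ordered by role. ES points lie to the right of 0 in 38 genes, whereas the 3T3-L1 points of Ndrg1 and Pfkfb3 and the PMEF points of Pfkp and Hk2 lie far to the left.

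Glucose enters the cell through the Slc2a family and lactate leaves or enters through monocarboxylate transporters of the Slc16a family. Slc2a1 was at 11.37, 11.36 and 11.33 in ES adipocytes, at 10.61, 10.47 and 10.56 in 3T3-L1, at 8.88, 8.82 and 8.97 in PMEF adipocytes and at 8.06, 8.15 and 8.26 in eWAT. The groups did not overlap and stood in that order. Slc2a1 rose in both fibroblast cultures against eWAT, by 2.39 ± 0.07 in 3T3-L1 (5.25-fold, adjusted p = 8.93e-12) and by 0.73 ± 0.07 in PMEF adipocytes (adjusted p = 1.81e-06). PMEF adipocytes were 3.15-fold below 3T3-L1 adipocytes (-1.66 ± 0.07, adjusted p = 4.04e-10), and ES adipocytes were 3.20 ± 0.07 above eWAT.

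The neuronal-type glucose transporter Slc2a3 (GLUT3) was at 7.74, 7.82 and 7.59 in ES adipocytes, with all other arrays between 4.69 and 6.08. Against eWAT it fell by 0.94 ± 0.13 in 3T3-L1 adipocytes (adjusted p = 2.16e-05), while the PMEF difference of -0.29 ± 0.13 did not pass (adjusted p = 0.0761). Without eWAT array 1 that difference passed (-0.41, adjusted p = 0.016), as it did without PMEF array 2 (-0.37, adjusted p = 0.047) and after centring on reference genes (-0.43, adjusted p = 0.00927). The lactate exporter Slc16a3 (MCT4) was at 9.08 ± 0.12 in ES adipocytes (SD, n = 3) and between 5.75 and 6.26 in the other 9 arrays. ES adipocytes were 2.94 ± 0.09 above eWAT, and the fibroblast cultures had differences of -0.29 ± 0.09 in 3T3-L1 (adjusted p = 0.0108) and -0.20 ± 0.09 in PMEF adipocytes (adjusted p = 0.0677). The 3T3-L1 call was lost without 3T3-L1 array 2 (-0.24, adjusted p = 0.0539) or eWAT array 3 (-0.23, adjusted p = 0.0524), and the difference shrank to -0.07 with quantile normalization (adjusted p = 0.5) and, after median centring of the arrays, to -0.08 (adjusted p = 0.408). The PMEF difference passed with quantile normalization (-0.21, adjusted p = 0.0423), on the reference genes (-0.34, adjusted p = 0.00503) and with the dimmest genes left out (-0.20, adjusted p = 0.045).

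Slc16a1 (MCT1), the widely expressed lactate and pyruvate carrier, had its highest level in another group. The 3T3-L1 arrays read 11.06, 11.03 and 11.07, the ES arrays 10.18, 10.11 and 10.06 and the PMEF arrays 9.16, 9.14 and 9.19, with eWAT at 9.83 ± 0.16 (SD, n = 3). It rose by 1.22 ± 0.08 in 3T3-L1 (adjusted p = 1.33e-08) and fell by 0.67 ± 0.08 in PMEF adipocytes (adjusted p = 8.53e-06) against eWAT. MCT1 and MCT4 transcripts therefore had their highest levels in different cultures. The ES arrays lay above eWAT without overlap for both, by 0.29 for MCT1.

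**Figure D3:**
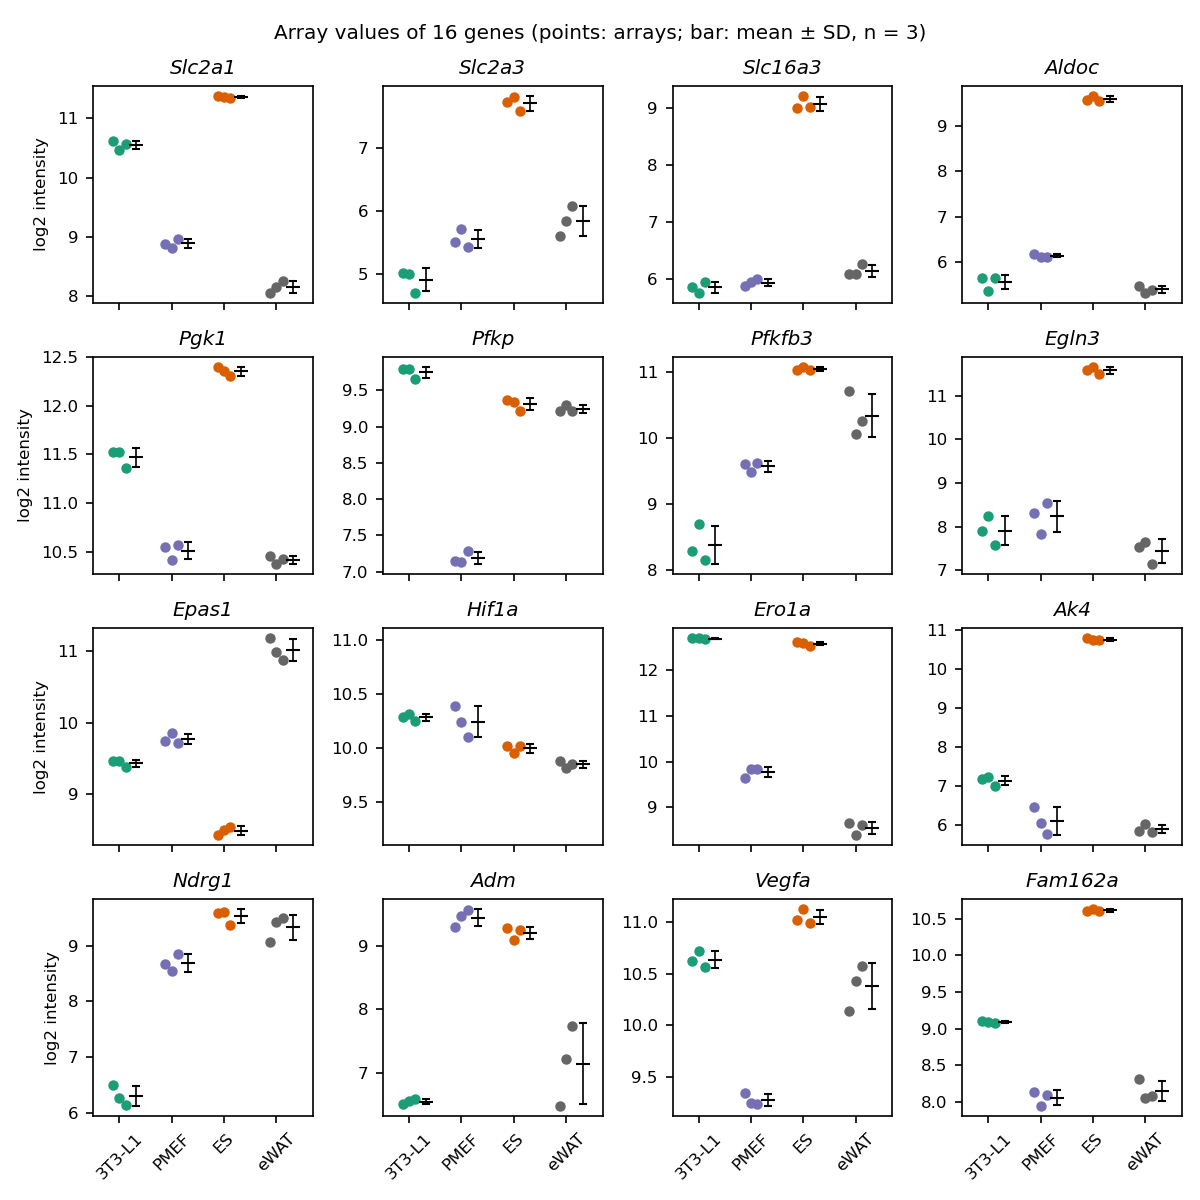
Log2 intensity of 16 members in each of the 12 arrays (points) with the group mean ± SD (bars, n = 3), 1 panel per gene, each with its own vertical scale that does not start at 0. Slc2a3, Slc16a3, Aldoc, Egln3 and Ak4 are highest in the ES arrays, Ero1a is high in both 3T3-L1 and ES arrays, and Epas1 is highest in eWAT.

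Among the 14 measured glycolytic enzymes the ES arrays lay above all others in 9 (8.31% of all genes), but the sizes were unequal. This count used the levels that chose the members. Aldoc, which splits fructose 1,6-bisphosphate, was at 9.56, 9.66 and 9.55 in ES adipocytes, between 6.11 and 6.17 in PMEF adipocytes, between 5.37 and 5.65 in 3T3-L1 adipocytes and between 5.32 and 5.48 in eWAT. ES adipocytes were 4.20 ± 0.08 above eWAT, an 18.3-fold difference. In PMEF adipocytes Aldoc rose by 0.74 ± 0.08 against eWAT (adjusted p = 6.28e-06), and in 3T3-L1 adipocytes it did not pass at 0.16 ± 0.08 (adjusted p = 0.141). That value passed without 3T3-L1 array 2 (0.25, adjusted p = 0.0178), with quantile normalization (0.33, adjusted p = 0.00651) and with arrays centred on their medians (0.37, adjusted p = 0.00165). Its muscle-type relative Aldoa lay between 11.93 and 12.67 in all 12 arrays, with ES adipocytes 0.33 ± 0.07 above eWAT. Aldoa fell by 0.34 ± 0.07 in PMEF adipocytes (adjusted p = 0.000781), and in 3T3-L1 adipocytes its difference of 0.04 ± 0.07 did not pass (adjusted p = 0.676). It became 0.25 with arrays centred on their medians (adjusted p = 0.00472) and -0.20 on the reference genes (adjusted p = 0.0278).

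Pgk1, the first ATP-making enzyme of the pathway, was at 12.40, 12.36 and 12.31 in ES adipocytes, at 11.53, 11.53 and 11.36 in 3T3-L1, at 10.55, 10.41 and 10.57 in PMEF adipocytes and at 10.45, 10.37 and 10.42 in eWAT. The PMEF and eWAT arrays overlapped and the other groups were separate. It rose by 1.05 ± 0.07 in 3T3-L1 adipocytes (adjusted p = 3.14e-08) and did not pass in PMEF adipocytes (0.10 ± 0.07, adjusted p = 0.295), and ES adipocytes were 1.94 ± 0.07 above eWAT. Tpi1, which interconverts the triose phosphates, and Pgam1, which moves the phosphate of phosphoglycerate, were 0.84 ± 0.08 and 0.81 ± 0.09 above eWAT in ES adipocytes. In 3T3-L1 adipocytes Tpi1 rose by 0.60 ± 0.08 (adjusted p = 1.79e-05) and Pgam1 by 0.62 ± 0.09 (adjusted p = 5.08e-05).

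The phosphofructokinase subunits, which catalyse the committed step, differed in which culture was high. Pfkl, the liver-type subunit, was at 10.83, 10.78 and 10.74 in ES adipocytes, 9.71, 9.47 and 9.40 in eWAT, 8.80, 8.85 and 8.62 in 3T3-L1 and 8.21, 8.23 and 7.99 in PMEF adipocytes. It fell in both fibroblast cultures, by 0.77 ± 0.10 in 3T3-L1 (adjusted p = 1.24e-05) and by 1.38 ± 0.10 in PMEF adipocytes (adjusted p = 6.05e-08). Pfkm, the muscle-type subunit, was highest in 3T3-L1 adipocytes at 9.31, 9.35 and 9.15, where it rose by 1.46 ± 0.10 against eWAT (adjusted p = 2.61e-08). The platelet-type subunit Pfkp was at 9.79, 9.79 and 9.66 in 3T3-L1, 9.37, 9.34 and 9.22 in ES adipocytes, 9.21, 9.30 and 9.22 in eWAT and only 7.15, 7.13 and 7.28 in PMEF adipocytes. ES adipocytes and eWAT overlapped there (0.07 ± 0.07), and PMEF adipocytes were 5.90-fold below 3T3-L1 adipocytes (-2.56 ± 0.07, adjusted p = 4.31e-12).

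Hexokinase traps glucose in the cell as glucose 6-phosphate. The insulin-responsive Hk2 was at 9.32, 9.42 and 9.20 in 3T3-L1, 8.94, 8.80 and 8.85 in ES adipocytes, 8.70, 8.46 and 8.42 in eWAT and 7.07, 6.83 and 7.22 in PMEF adipocytes. It rose by 0.79 ± 0.11 in 3T3-L1 (adjusted p = 2.22e-05) and fell by 1.49 ± 0.11 in PMEF adipocytes (adjusted p = 6.63e-08) against eWAT. The widely expressed Hk1 stayed within 11.55 to 12.10 in all arrays, with ES adipocytes 0.49 ± 0.07 above eWAT and a rise of 0.34 ± 0.07 in 3T3-L1 adipocytes (adjusted p = 0.000514), which was 0.11 and did not pass on the reference genes (adjusted p = 0.184). The level and differences of Hk1 depend on the probe set, as described further on.

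At the end of the pathway, the neuron-type enolase Eno2 was highest in PMEF adipocytes, at 7.74, 7.34 and 7.43, against 6.81, 6.88 and 6.67 in ES adipocytes, 5.90 ± 0.11 in eWAT (SD, n = 3) and 5.43, 5.74 and 5.58 in 3T3-L1 adipocytes. It rose by 1.60 ± 0.11 in PMEF adipocytes against eWAT (adjusted p = 5.3e-08). In 3T3-L1 adipocytes it fell by 0.32 ± 0.11 (adjusted p = 0.0267), a call lost without 3T3-L1 array 1 (-0.24, adjusted p = 0.115), 3T3-L1 array 3 (-0.32, 0.0592), eWAT array 1 (-0.27, 0.0886) or eWAT array 2 (-0.32, 0.0636). The fall of Eno2 shrank to -0.13 with quantile normalization (adjusted p = 0.313) and, after median centring, to -0.11 (adjusted p = 0.389). Pkm, which encodes pyruvate kinase of most tissues, was 0.41 ± 0.08 above eWAT in ES adipocytes and fell by 0.55 ± 0.08 in PMEF adipocytes (adjusted p = 0.000106). In 3T3-L1 adipocytes Pkm did not pass at 0.08 ± 0.08 (adjusted p = 0.459), but passed without eWAT array 1 (0.18, adjusted p = 0.0388) and with arrays centred on their medians (0.29, adjusted p = 0.00789). Ldha, the lactate dehydrogenase subunit that favours lactate, fell by 0.69 ± 0.06 in 3T3-L1 (adjusted p = 5.85e-07) and by 0.39 ± 0.06 in PMEF adipocytes (adjusted p = 0.000221), while ES adipocytes were 0.20 ± 0.06 above eWAT. Ldhb, the heart-type subunit, ranged from 8.57 to 9.31 over all arrays and rose by 0.40 ± 0.12 in 3T3-L1 adipocytes (adjusted p = 0.00978), though its arrays overlapped those of eWAT. The rise of Ldhb did not pass with quantile normalization (0.27, adjusted p = 0.0662) or on the reference genes (0.16, adjusted p = 0.25). The other probe set of Ldhb, not used here and numbered beside another chromosome, had means of 10.11 in 3T3-L1 adipocytes and 8.38 to 8.65 in the other groups. Which sequence that probe set reads was not tested.

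Nerve and glia are known to use Aldoc, Slc2a3 and Eno2, and their markers were also measured. The mean of 11 such markers was 5.99 to 6.47 in ES adipocytes, against 5.04 to 5.14 in 3T3-L1, 5.31 to 5.50 in PMEF adipocytes and 5.30 to 5.39 in eWAT, and the ES arrays lay above all others in 7 of the 11 (8.31% of all genes). Stmn2, a neuronal microtubule regulator, had a mean of 7.72 in ES adipocytes, 6.26 in PMEF, 4.80 in 3T3-L1 adipocytes and 6.19 in eWAT. Gfap, an astrocyte filament, was at 6.92 in ES adipocytes and at 4.91 to 5.09 elsewhere, whereas the myelin gene Mbp was highest in eWAT at 7.58. Their part in the levels of Aldoc, Slc2a3 and Eno2 was not tested.

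Between the fibroblast cultures 11 of 14 enzymes were lower and 3 higher in PMEF than in 3T3-L1 adipocytes, where 27.8% and 22.3% of all genes were. The 3 higher enzymes were Aldoc (0.58 ± 0.08), Eno2 (1.92 ± 0.11) and Ldha (0.31 ± 0.06), of which Ldha did not pass with arrays centred on their medians (0.09, adjusted p = 0.25). The lower ones included Hk2 at -2.27 ± 0.11 (adjusted p = 6.86e-10), Pfkm at -1.04 ± 0.10 (adjusted p = 8.69e-07) and Pgk1 at -0.96 ± 0.07 (adjusted p = 9.12e-08). Against eWAT, 8 of the 14 enzymes rose and 3 fell in 3T3-L1 adipocytes (30.8% and 22.5% of all genes), and 4 rose and 6 fell in PMEF adipocytes (24.7% and 21.6%). The call of Tpi1 between these cultures (-0.25 ± 0.08, adjusted p = 0.0187) was lost without 3T3-L1 array 1 (-0.23, 0.0549), 3T3-L1 array 2 (-0.24, 0.0543) or PMEF array 2 (-0.22, 0.0677), and on the reference genes (-0.15, 0.149). That of Hk1 (-0.22 ± 0.07, adjusted p = 0.0119) was lost without 3T3-L1 array 2 (-0.19, 0.0539) and on the reference genes (-0.12, 0.147).

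The kinases that set flux act at 2 points: the Pfkfb enzymes make or remove the fructose 2,6-bisphosphate that activates phosphofructokinase, and the Pdk kinases close the gate from pyruvate into mitochondria. Pfkfb3 was at 11.02, 11.07 and 11.02 in ES adipocytes, 10.70, 10.06 and 10.25 in eWAT, 9.61, 9.48 and 9.62 in PMEF and 8.29, 8.70 and 8.15 in 3T3-L1 adipocytes. No groups overlapped. It fell by 1.96 ± 0.15 in 3T3-L1 (adjusted p = 1.06e-07) and by 0.77 ± 0.15 in PMEF adipocytes (adjusted p = 0.000951). Pfkfb4 was lowest in ES adipocytes, at 6.29, 6.19 and 6.25, a difference from eWAT of -0.29 ± 0.09. Its rise of 0.25 ± 0.09 in 3T3-L1 adipocytes (adjusted p = 0.0264) was lost without 3T3-L1 array 2 (0.25, 0.0632), 3T3-L1 array 3 (0.20, 0.113), eWAT array 2 (0.19, 0.115) or eWAT array 3 (0.22, 0.084), with only the groups compared (0.25, 0.0763), and on the reference genes, where the difference was 0.02 (0.874).

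The 2 pyruvate dehydrogenase kinases moved apart in the fibroblast cultures. Pdk1, a classic HIF target, was at 9.10, 9.23 and 9.02 in ES adipocytes, 8.92, 8.68 and 8.72 in eWAT, 7.69, 7.76 and 7.51 in 3T3-L1 and 7.27, 7.33 and 7.32 in PMEF adipocytes. It fell by 1.12 ± 0.09 in 3T3-L1 (adjusted p = 1.23e-07) and by 1.47 ± 0.09 in PMEF adipocytes (adjusted p = 1.25e-08). Pdk3 was low in tissue, at 6.67, 6.61 and 6.79, and rose in both, by 1.51 ± 0.11 in 3T3-L1 (adjusted p = 6.21e-08) and by 1.91 ± 0.11 in PMEF adipocytes (adjusted p = 8.82e-09). ES adipocytes were 1.64 ± 0.11 above eWAT for Pdk3 and overlapped both fibroblast cultures.

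The oxygen sensors and the HIF alpha subunits did not move together. Egln3 was at 11.58, 11.66 and 11.50 in ES adipocytes, between 7.84 and 8.54 in PMEF, between 7.58 and 8.24 in 3T3-L1 adipocytes and between 7.14 and 7.65 in eWAT. ES adipocytes were 4.14 ± 0.19 above eWAT, a 17.7-fold difference, and Egln3 rose by 0.80 ± 0.19 in PMEF adipocytes (adjusted p = 0.00339). In 3T3-L1 adipocytes the difference of 0.47 ± 0.19 did not pass (adjusted p = 0.0507), but passed without 3T3-L1 array 3 (0.63, 0.0152), PMEF array 2 (0.47, 0.0268), PMEF array 3 (0.47, 0.0393) or eWAT array 2 (0.58, 0.0396), with arrays centred on their medians (0.68, 0.00545) and with the dimmest genes left out (0.47, 0.0371). Egln1, the main hydroxylase in most tissues, was 1.14 ± 0.09 above eWAT in ES adipocytes and fell by 0.74 ± 0.09 in PMEF adipocytes (adjusted p = 8.34e-06), with -0.02 ± 0.09 in 3T3-L1 adipocytes (adjusted p = 0.878; -0.25 and 0.0205 on the reference genes).

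Epas1, which encodes HIF-2 alpha and is rich in vessel lining and fat, was highest in eWAT and lowest in ES adipocytes. It was at 11.18, 10.99 and 10.87 in eWAT, 9.75, 9.85 and 9.72 in PMEF, 9.46, 9.46 and 9.38 in 3T3-L1 and 8.43, 8.50 and 8.55 in ES adipocytes, with no overlap between groups. Against eWAT it fell by 1.58 ± 0.08 in 3T3-L1 (adjusted p = 1.87e-09) and by 1.24 ± 0.08 in PMEF adipocytes (adjusted p = 3.35e-08), and ES adipocytes were at -2.52 ± 0.08. The endothelial list was also low in each culture, with 10 of 10 genes fallen in 3T3-L1 (22.5% of all genes) and in PMEF adipocytes (21.6%). In ES adipocytes 10 of 10 lay below eWAT without overlap (24.3%). Cdh5, the cadherin of vessel junctions, had means of 5.10, 5.55, 6.59 and 11.04 in 3T3-L1, PMEF, ES adipocytes and eWAT. The part of vessel cells in the eWAT level of Epas1 was not tested. Hif1a, whose product is controlled mainly at the protein level, kept within 9.82 to 10.39. It rose by 0.43 ± 0.08 in 3T3-L1 (adjusted p = 0.000223) and by 0.39 ± 0.08 in PMEF adipocytes (adjusted p = 0.000665), and ES adipocytes were only 0.15 ± 0.08 above eWAT. HIF protein was not measured.

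Among the 14 other hypoxia targets the ES arrays lay above all others in 10 (8.31% of all genes), again a count from the levels that chose the members. Ak4, an adenylate kinase of the mitochondrial matrix, had the largest difference from eWAT, at 10.79, 10.73 and 10.73 in ES adipocytes against 5.84, 6.01 and 5.82, with 3T3-L1 adipocytes at 7.13 ± 0.12 (SD, n = 3) and PMEF adipocytes at 6.47, 6.04 and 5.76. This 4.86 ± 0.14 depends on the probe set, as described further on. Fam162a was at 10.60, 10.63 and 10.61 in ES adipocytes, 9.10, 9.09 and 9.08 in 3T3-L1, 8.14, 7.94 and 8.09 in PMEF adipocytes and 8.31, 8.06 and 8.08 in eWAT. PMEF adipocytes and eWAT overlapped, and Fam162a rose by 0.94 ± 0.08 in 3T3-L1 adipocytes (adjusted p = 2.01e-07).

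Several targets were high in ES adipocytes, and of these Ankrd37 and Ddit4 stayed near tissue level in both fibroblast cultures. Ankrd37, an ankyrin repeat gene, was at 7.18, 7.33 and 7.31 in ES adipocytes and between 5.69 and 6.07 in all other arrays, and Ddit4, which restrains mTORC1, was at 8.91 to 9.05 against 7.19 to 7.87. Neither passed in either fibroblast culture against eWAT as reported. In 3T3-L1 adipocytes Ddit4 passed with arrays centred on their medians (0.43, adjusted p = 0.00603) and Ankrd37 on the reference genes (-0.26, adjusted p = 0.0192). The collagen prolyl hydroxylase P4ha1 was 1.45 ± 0.10 above eWAT in ES adipocytes, with all other arrays between 8.58 and 9.15, and fell by 0.35 ± 0.10 in PMEF adipocytes (adjusted p = 0.00842). In 3T3-L1 adipocytes P4ha1 did not pass (-0.14 ± 0.10, adjusted p = 0.253) but passed without eWAT array 1 (-0.27, 0.00404), with quantile normalization (-0.27, 0.0366) and on the reference genes (-0.37, 0.00333). The difference of P4ha1 between the fibroblast cultures (-0.21 ± 0.10, adjusted p = 0.0852) passed under 5 settings, among them without eWAT array 1 (-0.21, 0.00982) and with arrays centred on their medians (-0.43, 0.00158). Its relative P4ha2 was 1.40 ± 0.10 above eWAT in ES adipocytes and rose by 0.88 ± 0.10 in PMEF adipocytes (adjusted p = 5.75e-06). Stc2, a secreted glycoprotein, was 1.62 ± 0.10 above eWAT in ES adipocytes and fell by 0.67 ± 0.10 in 3T3-L1 adipocytes (adjusted p = 4.89e-05).

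Ero1a was high in 2 cultures. Its arrays read 12.69, 12.69 and 12.67 in 3T3-L1, 12.60, 12.58 and 12.53 in ES adipocytes, 9.64, 9.83 and 9.84 in PMEF adipocytes and 8.65, 8.39 and 8.61 in eWAT. The rise against eWAT was 4.13 ± 0.08 in 3T3-L1 (17.5-fold, adjusted p = 1.23e-13) and 1.22 ± 0.08 in PMEF adipocytes (adjusted p = 3.43e-08). PMEF adipocytes were 7.52-fold below 3T3-L1 adipocytes (-2.91 ± 0.08, adjusted p = 4.31e-12). Ero1a is also induced by unfolded protein stress. Set beside it were 16 stress response genes, which mix several responses, that to amino acid shortage among them. Their mean was 10.02 to 10.05 in 3T3-L1, 9.28 to 9.40 in ES, 8.50 to 8.51 in PMEF adipocytes and 8.25 to 8.50 in eWAT, and 15 of 16 rose and 0 fell in 3T3-L1 adipocytes against eWAT (30.8% and 22.5% of all genes). In PMEF adipocytes, where Ero1a rose, 7 of the 16 rose and 5 fell (24.7% and 21.6% of all genes), with a median of 0.18. Ddit3, a stress-induced transcription factor, rose by 4.09 ± 0.08 in 3T3-L1 (adjusted p = 7.54e-14) and by 0.95 ± 0.08 in PMEF adipocytes (adjusted p = 1.95e-07). Hspa5, the chief chaperone of the endoplasmic reticulum, rose by 0.98 ± 0.07 in 3T3-L1 adipocytes (adjusted p = 3.74e-08) but fell by 0.45 ± 0.07 in PMEF adipocytes (adjusted p = 0.000107). The part of these stress responses in the levels of Ero1a, Vegfa and Ddit4 was not tested.

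The secreted vessel factors differed from one another. Vegfa, the main growth factor for vessel lining, was at 11.02, 11.12 and 10.99 in ES adipocytes, 10.62, 10.72 and 10.56 in 3T3-L1, 10.14, 10.43 and 10.57 in eWAT and 9.35, 9.25 and 9.24 in PMEF adipocytes. The 3T3-L1 and eWAT arrays overlapped, and the PMEF arrays were lowest. It fell by 1.10 ± 0.10 in PMEF adipocytes (adjusted p = 5.77e-07). The rise of 0.25 ± 0.10 in 3T3-L1 adipocytes (adjusted p = 0.043) was lost under 13 of 23 alternative settings, with adjusted p of 0.0503 to 0.866. Leaving out any 1 of 9 arrays ended that call, among them eWAT array 1 (0.13, 0.193) and 3T3-L1 array 2 (0.21, 0.141). Adm was at 9.30, 9.46 and 9.56 in PMEF, 9.27, 9.09 and 9.24 in ES and 6.51, 6.56 and 6.59 in 3T3-L1 adipocytes, with eWAT spread from 6.48 to 7.74. The 3T3-L1 arrays lay within the eWAT range and the PMEF and ES arrays above it. Adm rose by 2.29 ± 0.22 in PMEF adipocytes (4.89-fold, adjusted p = 1.17e-06). Its fall of 0.60 ± 0.22 in 3T3-L1 adipocytes (adjusted p = 0.0336) was lost under 9 of the 23 settings (adjusted p of 0.0619 to 0.162), including without any 1 of the 3T3-L1 arrays and without eWAT array 2 (-0.56, 0.094) or 3 (-0.30, 0.162).

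Ndrg1, a stress-induced gene of cell differentiation, was lowest in 3T3-L1 adipocytes, at 6.50, 6.26 and 6.14, against 8.67, 8.55 and 8.86 in PMEF, 9.59, 9.61 and 9.38 in ES adipocytes and 9.07, 9.42 and 9.50 in eWAT. ES adipocytes and eWAT overlapped. It fell by 3.03 ± 0.13 in 3T3-L1 (8.15-fold lower, adjusted p = 1.99e-10) and by 0.64 ± 0.13 in PMEF adipocytes (adjusted p = 0.00101). Bnip3, which tags mitochondria for removal, fell by 1.23 ± 0.09 in 3T3-L1 (adjusted p = 3.92e-08) and by 1.17 ± 0.09 in PMEF adipocytes (adjusted p = 9.87e-08), while ES adipocytes were 0.88 ± 0.09 above eWAT. Its relative Bnip3l stayed within 11.46 to 12.13, and its call between the fibroblast cultures (-0.22 ± 0.08, adjusted p = 0.0431) was lost without any 1 of 8 arrays and on the reference genes (-0.12, adjusted p = 0.257). Mxi1, a repressor of the Myc network, was highest in 3T3-L1 adipocytes at 8.25, 8.14 and 8.20, where it rose by 1.15 ± 0.08 (adjusted p = 2.33e-08), with ES adipocytes 0.93 ± 0.08 above eWAT and PMEF adipocytes at -0.05 ± 0.08 (adjusted p = 0.629).

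For 6 members the probe set used, the brightest of several, was numbered away from the gene itself, and which sequence it reads was not tested. Probe sets of this array are numbered along the chromosomes, and for 99.7% of 18859 genes with a single probe set the neighbours by number were mostly on the chromosome of the gene. For Ak4, Bnip3, Bnip3l, Hk1, Pgam1 and Pgk1 all 20 neighbours of the brightest probe set were on another chromosome, and each of these genes has another probe set numbered beside its own chromosome. With that other probe set, chosen as an alternative after these values were seen, Ak4 in ES adipocytes was 2.66 above eWAT in place of 4.86, and its rise in 3T3-L1 adipocytes was 0.52 (adjusted p = 0.00373) in place of 1.24. Its difference between PMEF and 3T3-L1 adipocytes was -0.36 (adjusted p = 0.0323) in place of -1.04. Bnip3 changed from 0.88 to 1.20 in ES adipocytes against eWAT and Pgk1 from 1.94 to 1.83, so both kept their direction. The difference of Bnip3l between PMEF and 3T3-L1 adipocytes was -0.29 (adjusted p = 0.00603) in place of -0.22. Hk1 in PMEF adipocytes against eWAT changed from 0.12 ± 0.07 (adjusted p = 0.154) to 0.32 (adjusted p = 0.00548). Its rise in 3T3-L1 adipocytes changed from 0.34 to 0.59 (adjusted p = 3.36e-05), and the difference of ES adipocytes from eWAT from 0.49 to 0.67. The own-chromosome probe set of Hk1 had group means of 7.37 to 8.04, against 11.58 to 12.06 for the one used. Without the 6 genes the members called against eWAT were 14 higher and 11 lower in 3T3-L1 adipocytes and 11 higher and 14 lower in PMEF adipocytes.

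**Figure D4:**
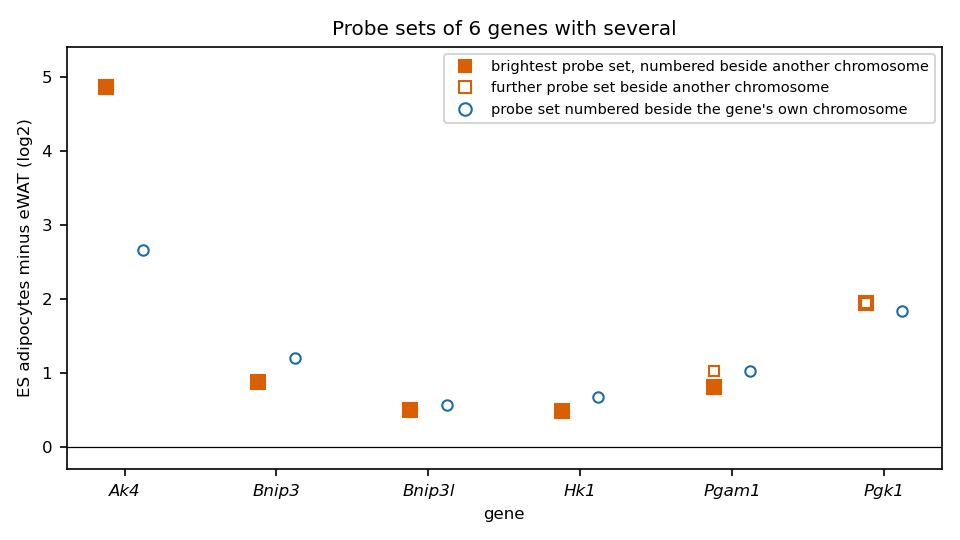
Log2 difference of ES adipocytes from eWAT for each probe set of the 6 members whose brightest probe set is numbered beside another chromosome (filled squares: the probe set used; open squares: a further such probe set; circles: beside the gene's own chromosome). All points lie above 0, and only Ak4 shows a wide gap, from 4.86 to 2.66.

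Genes of the same pathways that are no members were described from lists. Of 46 measured further hypoxia pathway genes, the ES arrays lay above all others in 20 (8.31% of all genes). In ES adipocytes 34 were higher and 6 lower than eWAT without overlap (33.6% and 24.3% of all genes), with a median of 0.68. The highest were Tmem45a, a membrane protein, at 3.66 ± 0.07, the collagen lysyl hydroxylase Plod2 at 3.52 ± 0.10, the haem oxygenase Hmox1 at 2.95 ± 0.24 and the cytokine Mif at 2.46 ± 0.07. The nitric oxide synthase Nos2 (-1.37 ± 0.15) and the vasoconstrictor Edn1 (-0.86 ± 0.15) were lowest. Against eWAT 22 of the 46 rose and 11 fell in 3T3-L1 adipocytes (30.8% and 22.5% of all genes), and 15 rose and 13 fell in PMEF adipocytes (24.7% and 21.6%). In PMEF against 3T3-L1 adipocytes 13 were higher and 21 lower (22.3% and 27.8%). Plod2 was 3.93 ± 0.10 higher (adjusted p = 2.05e-12) and the collagen cross-linking oxidase Lox 3.09 ± 0.08 higher (adjusted p = 1.81e-12) in PMEF than in 3T3-L1 adipocytes.

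The 30 measured further genes of glycolysis and pyruvate use did not show the ES pattern of the members, which were picked for it. This list holds genes outside that choice, and its difference from the members was not tested. It includes genes of pyruvate use and enzyme forms of low signal, such as Pgam2, Hk3 and Pklr (means over the 12 arrays of 4.9, 5.26 and 5.4). Gapdh and Eno1 were not measured. ES arrays lay above all others in 1 of 30 (8.31% of all genes). Against eWAT 7 were higher and 12 lower without overlap (33.6% and 24.3% of all genes), with a median of -0.03. The monocarboxylate carrier Slc16a7 was at -3.42 ± 0.13 and the mitochondrial glycerol phosphate dehydrogenase Gpd2 at -2.55 ± 0.08 in ES adipocytes. Slc16a7 fell by 5.17 ± 0.13 in 3T3-L1 (adjusted p = 9.53e-13) and by 4.02 ± 0.13 in PMEF adipocytes (adjusted p = 2.2e-11). Pdk4, the pyruvate dehydrogenase kinase of fasting, was below eWAT in ES adipocytes (-1.35 ± 0.09), while Pdk1 and Pdk3 were above. Of the 30 genes 10 rose and 12 fell in 3T3-L1 adipocytes against eWAT (30.8% and 22.5% of all genes), and 4 rose and 16 fell in PMEF adipocytes (24.7% and 21.6%). In PMEF against 3T3-L1 adipocytes 7 were higher and 13 lower (22.3% and 27.8%). Slc2a4, the insulin-responsive glucose transporter, had means of 10.07 in 3T3-L1, 8.94 in PMEF, 10.17 in ES adipocytes and 10.58 in eWAT.

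**Figure D5:**
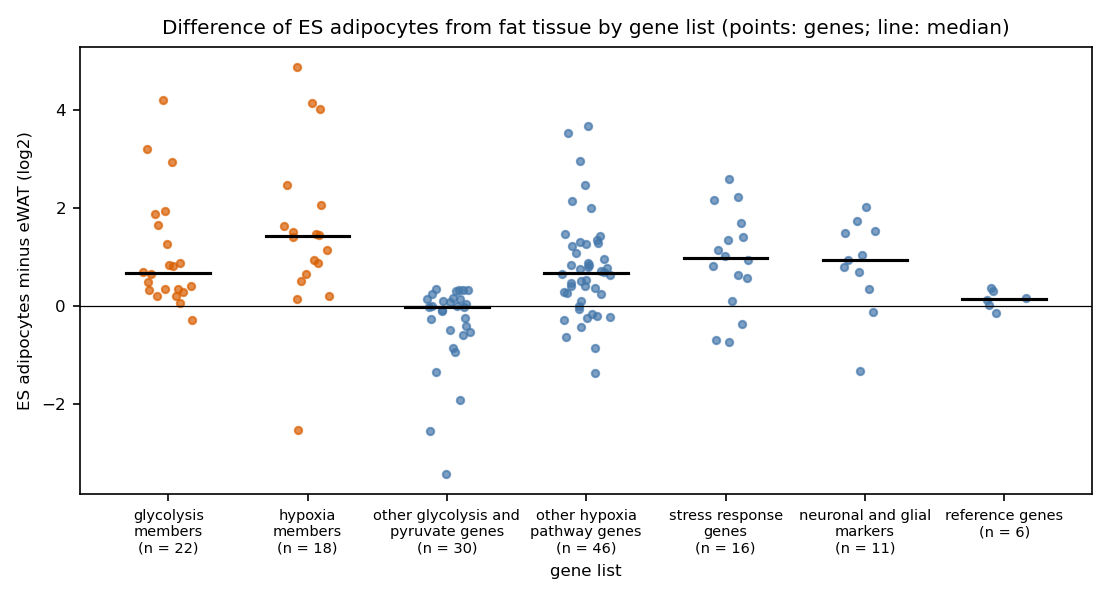
Log2 difference of ES adipocytes from eWAT (points: genes, with sideways scatter for legibility; line: median) for the members on the glycolysis side (22) and hypoxia side (18) and for 5 other lists. Medians are 0.68 and 1.43 for the members, 0.68 for the further hypoxia genes and -0.03 for the further glycolysis and pyruvate genes. The members were picked for high ES levels, so the lists are not compared by a test.

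Across the 12 arrays, which fall into 4 groups, the members followed the mean of the 14 other hypoxia targets (a member of that set left out of its own mean) to very different degrees. Pearson r was 0.98 for Slc16a3, Aldoc, Egln3, Ankrd37 and Ddit4, near 0 for Slc16a1 and Pfkm (0.11 for both), and negative for Epas1 (-0.81), Pfkfb4 (-0.67) and Hif1a (-0.21). Outside the lists of members, the closest of 4688 genes with a range of at least 1 were Gkn2 (0.990), Pcdhb11 (0.989), Rps3a1 (0.989), Gfap (0.987) and Apln (0.986). Such values mostly describe that the ES group is high, since the 3 arrays of a group share their cell source.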

How the data were processed

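Biotin-labelled cDNA of total RNA extracted with TRIzol was hybridized to Affymetrix arrays, per the labels' protocols. The authors deposited 1 table of log2 values for 35556 probe sets and 12 arrays. That the scale is log2 was inferred from its range (1.11 to 13.48); normalization and software are not stated by any source used here. Values were used as deposited, and no replicate was left out. Of the probe sets 21789 had a single gene symbol, 1621 had several and 12146 had none (both left out), per the array annotation, and 21698 were matched by Entrez ID to RefSeq. The brightest probe set over the 12 arrays stood for each of the 999 genes with several, for a total of 19938 genes, dim ones included. Precision is limited by the 3 arrays per group. Array medians over probe sets were 5.84 to 5.98. Over the 19938 genes analysed they were 6.11 to 6.12 in the 3T3-L1 arrays and 6.31 to 6.35 in the other groups. Pearson correlations across genes were 0.992 to 0.997 within and 0.899 to 0.965 between groups.

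limma 3.58.1 (R 4.3.3) estimated 4 group means from the 12 arrays together (8 residual and 4.88 prior degrees of freedom), with two-sided moderated tests and Benjamini-Hochberg adjustment. The code of the fit was tried on simulated data with independent normal noise. Such data cannot speak to the scaling of the arrays or to whether the replicates are independent. The labels call the replicates biological. The members, the gene lists and the tests were chosen with earlier results of these data known, so contrasts with ES adipocytes carry no test. All members could be named, with, from the 2 further pathway lists, the 3 largest rises and falls among calls of each tested contrast and the 4 highest and 4 lowest ES differences from eWAT, from the stress and cell type lists the 2 brightest genes and the 2 of widest range, and the 10 genes most like the other hypoxia targets. Alternatives were quantile normalization, centring on array medians or reference genes, dropping the dimmest 33.3% of genes, averaging or testing all probe sets, only the groups compared, a trended robust variance, the replicate number as a block and each array left out. The probe set of the own chromosome and the omission of 6 members were added after the values were seen.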

Additional observations from a re-analysis of the deposited data

Results flagged for a closer look

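For 6 members the differences of 3T3-L1 and of PMEF adipocytes from eWAT had opposite signs and each passed the limma test, as did the difference between these cultures. Hk2, Pfkp and Slc16a1 were higher than eWAT in 3T3-L1 and lower in PMEF adipocytes, with PMEF minus 3T3-L1 at -2.27 ± 0.11, -2.56 ± 0.07 and -1.89 ± 0.08 (adjusted p = 6.86e-10, 4.31e-12 and 2e-10). Vegfa ran the same way at -1.35 ± 0.10 (adjusted p = 5.2e-08). Adm and Eno2 ran the other way, at 2.89 ± 0.22 (adjusted p = 8.19e-08) and 1.92 ± 0.11 (adjusted p = 6.07e-09). The differences of Vegfa, Adm and Eno2 between 3T3-L1 adipocytes and eWAT did not pass under some of the alternative settings. The gap between the cultures passed under all 23 alternative settings for each of the 6 genes. The cause of these opposite directions was not tested.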

How the results depend on the processing

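With each array left out in turn, members called higher and lower were 18 to 19 and 10 to 12 in 3T3-L1 against eWAT, 11 to 12 and 15 to 16 in PMEF against eWAT, and 11 to 12 and 19 to 23 in PMEF against 3T3-L1, and the median ES differences were 0.85 to 0.93 from eWAT, 1.31 to 1.45 from PMEF and 0.85 to 0.92 from 3T3-L1. No count of calls moved by over 1.5 times under any alternative. The median ES difference from 3T3-L1, reported as 0.89, was 0.68 with array medians set equal, 0.94 with quantile normalization, 0.99 on the reference genes, 0.85 with the probe set of the own chromosome and 1.03 without the 6 genes, and that from eWAT, reported as 0.88, was 0.75 on the reference genes and 0.98 with the own-chromosome probe set. Centring on array medians moved the median of all genes by 0.210 in 3T3-L1 against eWAT, and the reference genes moved it by -0.234. Aldoa alone turned its direction with a call, from 0.04 to -0.20 in 3T3-L1 against eWAT. Of the calls, 23 of 31 in 3T3-L1 against eWAT, 26 of 26 in PMEF against eWAT and 27 of 33 between them held under all 23 alternatives. Replicate numbers did not pair the arrays (correlation of deviations -0.137 to 0.108 for the same number), and the replicate block left the counts at 18 and 12, 11 and 15, and 11 and 22, ending only the call of Vegfa in 3T3-L1 (adjusted p = 0.0549).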

Other observations

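The mean of 8 mesothelial markers was 7.43 to 7.50 in PMEF and 7.12 to 7.15 in ES adipocytes, against 5.44 to 5.65 in 3T3-L1 adipocytes and eWAT. The mean of 11 cell cycle genes was 6.76 to 7.15 in the cultures and 6.11 to 6.26 in eWAT. Skeletal muscle markers lay at 5.29 to 5.54 and cartilage markers at 5.04 to 5.56 in all arrays, pluripotency markers at 4.83 to 5.32, lymphocyte markers at 5.22 to 5.41 in eWAT and 4.37 to 4.75 in the cultures, and 3 measured red cell genes at 5.97 to 6.20 in eWAT and 5.04 to 5.27 in the cultures. Within these lists single genes stood apart: the pluripotency gene Sox2 had a mean of 5.63 in ES adipocytes and 3.99 to 4.07 elsewhere, the cartilage regulator Sox9 was at 8.21 in 3T3-L1 adipocytes and 6.14 in eWAT, and the haem synthesis gene Alas2 was at 7.88 in eWAT and 5.34 in ES adipocytes. The 6 measured reference genes had a mean of 11.35 to 11.38 in eWAT and 11.49 to 11.62 in the cultures.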
